A study of Mus musculus with 2 samples.

Results

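The 10 genes described here encode proteins of the presynaptic active zone, the patch of membrane where synaptic vesicles fuse, together with the complexins. They are Bsn, Pclo, Rims1, Rims2, Unc13a, Erc1, Erc2, Rimbp2, Cplx1 and Cplx2, taken by symbol from the transcript names, and each symbol matched 1 of the 55536 genes in the gene tables. They were measured by total RNA sequencing in 2 libraries of hippocampus (labelled as a layer of it), taken at 2 months of age from male B6CASTF1/J animals, hybrids of C57BL/6J and CAST/EiJ, with 300 ng of RNA per library and no treatment named. The libraries carry biological replicate numbers 1 and 2 with 1 shared donor label, nothing names separate animals beyond those numbers, and the libraries form 1 group, so no comparison of conditions or p-value can be given.

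At the active zone, the large scaffold proteins bassoon and piccolo, the RIMs, the RIM-binding proteins and the ELKS/CAST proteins hold vesicles close to calcium channels. Munc13 proteins prime vesicles by helping the SNARE proteins assemble. Complexins bind the assembled SNARE complex, holding it ready for the calcium signal carried by synaptotagmin. In the hippocampus these proteins set release probability at excitatory and inhibitory synapses.

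The total expected count, the estimated number of reads assigned to all entries, was 31422827 in replicate 1 and 31303010 in replicate 2. Levels are given in TPM, the share of a gene in all transcripts on a common scale, corrected for transcript length. A gene was called detected at 1 TPM or more in both libraries. Glutamatergic and GABAergic neuron markers were all detected, 5 of 5 in each list, as were 4 of 4 for astrocytes, oligodendrocytes and microglia. Choroid plexus markers were detected for 1 of 4, Ttr, and genes of other organs for 1 of 4, Myh6. In bulk tissue, fewer cells of a type and less RNA per cell cannot be told apart.

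All 10 genes were detected, where 26.2% of all genes and 57.7% of nuclear protein-coding genes were. Their mean levels ran from 20.2 TPM for Erc1 to 423 TPM for Cplx2, with a median of 93.1 TPM. The median over the 12697 detected protein-coding genes was 14.7 TPM. Together the 10 genes held 0.293% of the nuclear protein-coding TPM in replicate 1 and 0.284% in replicate 2, and the complexins made up 53.4% and 53.7% of the 10 genes' sum.

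**Figure D1:**
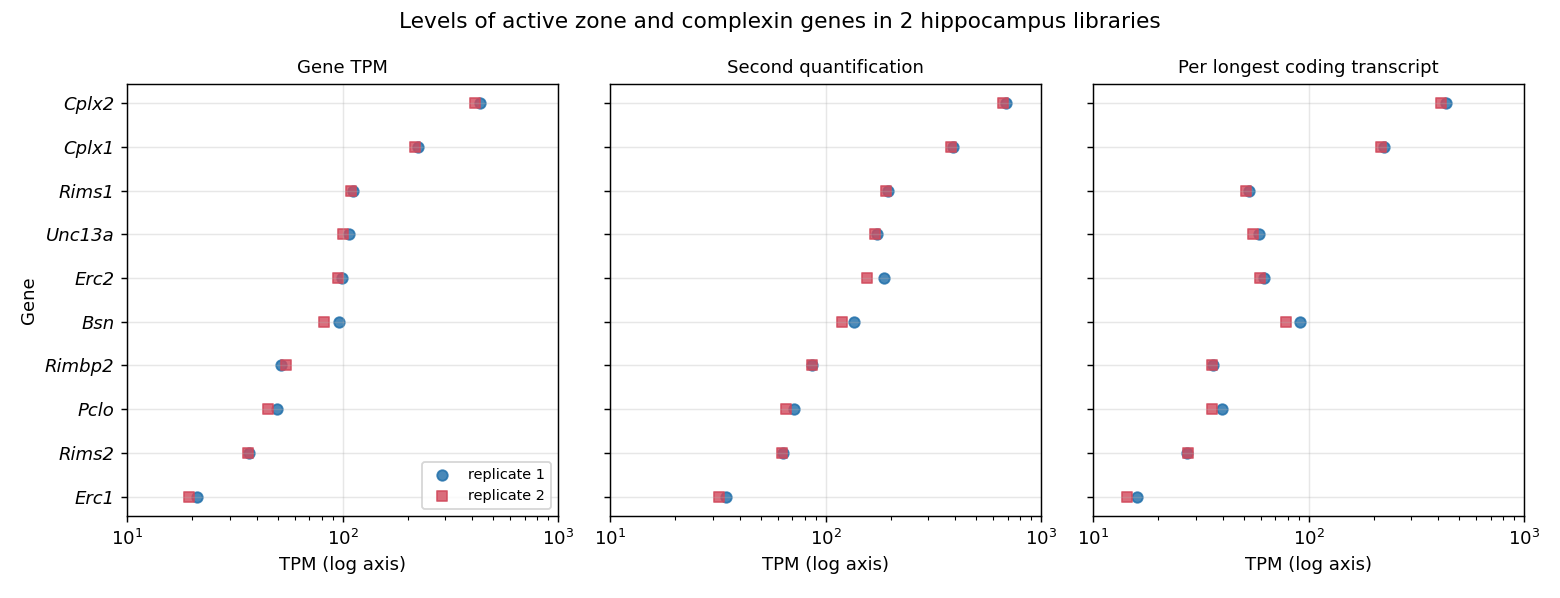
Level of each gene in TPM on a log axis, with replicate 1 as circles and replicate 2 as squares, in the gene quantification, in the second quantification and per length of the longest coding transcript. Cplx2 and Cplx1 lead on each scale, while Rims1 moves from place 3 in the first panel to place 6 in the last.

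The complexins, small soluble proteins that both restrain and promote vesicle fusion, stood highest. Cplx2 was at 434 TPM in replicate 1 and 412 in replicate 2, a mean of 423 ± 15.6 TPM (SD, n = 2). It ranked 66 among detected nuclear protein-coding genes. Cplx1 was at 224 and 217 TPM, a mean of 220.2 ± 4.84 TPM (SD, n = 2) and rank 224. The libraries of the complexins did not overlap, and Cplx2 was 1.94 times Cplx1 in replicate 1 and 1.90 times in replicate 2. In the second quantification, made directly from the reads, the ratio was 1.78 and 1.74.

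Cplx2 (ENSMUSG00000025867.8) lies on chromosome 13 from 54371349 to 54383917 (mm10, plus strand) and has 1 annotated transcript. Cplx1 (ENSMUSG00000033615.9) lies on chromosome 5 from 108518554 to 108550024 on the minus strand and has 2. Cplx1-201 held all of the gene's TPM in both libraries, while the second quantification gave 10.3% and 8.98% to Cplx1-202, a model incomplete at its end. The coding sequences of Cplx1-201 and Cplx2-201 are both 402 bases without the stop codon. Their first 300 bases, from the GENCODE M21 transcripts and printed 5′ to 3′, show how closely the paralogs resemble each other, with the bases that differ in capitals.
Cplx1: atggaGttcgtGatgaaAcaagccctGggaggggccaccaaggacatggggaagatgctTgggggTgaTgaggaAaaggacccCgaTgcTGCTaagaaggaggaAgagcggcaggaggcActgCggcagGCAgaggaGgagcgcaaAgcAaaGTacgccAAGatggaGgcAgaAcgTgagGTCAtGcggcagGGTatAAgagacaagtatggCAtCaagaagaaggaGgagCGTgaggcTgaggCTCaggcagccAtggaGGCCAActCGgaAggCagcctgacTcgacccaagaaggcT
Cplx2: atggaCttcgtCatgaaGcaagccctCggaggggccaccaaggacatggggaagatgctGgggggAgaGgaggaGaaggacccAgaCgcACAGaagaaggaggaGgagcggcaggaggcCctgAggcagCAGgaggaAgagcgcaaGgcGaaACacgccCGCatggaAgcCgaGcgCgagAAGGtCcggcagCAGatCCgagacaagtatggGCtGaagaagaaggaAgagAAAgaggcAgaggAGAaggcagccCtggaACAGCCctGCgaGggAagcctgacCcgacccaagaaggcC
Over the whole 402 bases, 320 were the same (79.6%), and 53 of the 82 differences fell on the last base of a codon. The transcripts of Cplx1 shared 2 of their 2188 words of 31 bases with any other gene, both with Cplx2. Cplx2 shared 76 of its 4735 words (1.61%), the largest share of the 10 genes, 62 of them with Gm47409.

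The large scaffolds took more reads than their level implies, because TPM divides by length. Bsn (ENSMUSG00000032589.14) encodes bassoon and lies on chromosome 9 from 108096022 to 108190384 on the minus strand. It was at 96.0 TPM in replicate 1 and 82.0 in replicate 2, a mean of 89.0 ± 9.89 TPM (SD, n = 2). Its expected counts of 32579 and 28715 were the second highest of the 10 genes, while its TPM was the sixth. Pclo (ENSMUSG00000061601.15) encodes piccolo and lies on chromosome 5 from 14514918 to 14863459 on the plus strand. It was at 49.7 and 45.2 TPM, a mean of 47.4 ± 3.18 TPM (SD, n = 2). Its counts of 17769 and 16430 were the third highest. Bsn was 1.93 times Pclo in replicate 1 and 1.81 times in replicate 2, and every Bsn value lay above every Pclo value.

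Bsn was nearly all 1 transcript and Pclo was not. Bsn-201, with 12 exons and 11826 coding bases, held 91.2% and 92.0% of the Bsn TPM, and 99.4% and 99.2% in the second quantification. Pclo-202, which ends before the last coding exons, held 60.3% and 58.8% of the Pclo TPM. Pclo-201, which runs on to the distal end of the gene, held 22.1% in both libraries. The long piccolo form is known to carry a second C2 domain that the short form lacks. The coding part is 15204 bases in Pclo-201 and 14589 bases in Pclo-202. The second quantification kept that order, at 68.2% and 67.9% for Pclo-202 against 17.5% in both libraries for Pclo-201. Pclo-204, a model incomplete at its start, held 15.4% and 17.1%, and 5.79% and 6.48% in the second quantification.

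Among the RIM genes Rims1 stood above Rims2. RIMs bind Rab3 on vesicles, Munc13 and calcium channels. Rims1 (ENSMUSG00000041670.16), on chromosome 1 from 22286251 to 22805994 on the minus strand, was at 111 TPM in replicate 1 and 109 in replicate 2, a mean of 110.0 ± 1.65 TPM (SD, n = 2). Rims2 (ENSMUSG00000037386.16), on chromosome 15 from 39198261 to 39684372 on the plus strand, was at 36.7 and 36.4 TPM, a mean of 36.5 ± 0.184 TPM (SD, n = 2). The ratio of Rims1 to Rims2 was 3.03 and 2.99, and 3.04 and 3.06 in the second quantification. Divided by the length of each gene's longest coding transcript instead, it was 1.93 and 1.86.

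That change of ratio goes with the transcript models that hold the RIM TPM. Because TPM divides by length, the short Rims1 models hold a smaller share of the reads than of the TPM. Rims1-202, a model of 2411 bases that is incomplete at its end, led with 32.2% and 34.7% of the gene's TPM. Rims1-208, of 2189 bases and incomplete at its start, held 18.8% and 20.6%. Rims1-209, of 1434 bases and covering only the first exons, held 18.2% and 16.5%. The 5 complete models with at least 50% of the longest coding length held 25.3% and 23.8% together, and 25.2% and 25.1% in the second quantification. Among them Rims1-205, the longest, had 0 TPM in both libraries of both quantifications. Rims1-202 and Rims1-208 cover parts of the gene that do not overlap, so TPM counts them as separate molecules.

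Of the genes with several transcripts, Rims1 was the only one of 9 here whose leading transcript is an incomplete model, against 3.35% of 11502 detected protein-coding genes with several transcripts. In Rims2 the shares were spread more evenly. Rims2-201, with 27 exons and 4716 coding bases, led with 28.9% and 27.5% of the Rims2 TPM. Rims2-204 starts inside the gene at position 39659566, a start the annotation marks as supported by CAGE, and held 25.5% and 25.8%. It has 6 exons and 855 coding bases, and short forms from the end of a RIM gene are known as gamma RIMs. Rims2-206 held 19.0% and 21.8%, and Rims2-211, which also has a CAGE-supported internal start at 39391800 and is incomplete at its end, held 20.8% and 18.7%.

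Several coding exons of the RIM genes are held by some transcripts and skipped by others. The share given for an exon is the TPM of the transcripts that hold it, over that TPM plus the TPM of the transcripts whose intron spans it. In 7 of the genes 31 coding exons of at most 300 bases had transcripts of both kinds. Of these 20, in 6 genes, lay between 10% and 90% in both libraries and both quantifications, and are called alternative here. The length of 16 of the 20 is a multiple of 3, as is that of every exon among the 31 not called alternative. The same share over coding exons of all genes was not computed, so these counts are not a trait particular to the 10 genes. Exons held by the same transcripts, such as the Rims1 exons of 7 and 5 bases, are counted separately, so the 20 are not independent. Between the libraries the share of these exons moved by a median of 2.34 percentage points and at most 6.57 in the first quantification. Between the quantifications the mean share over the 2 libraries moved by a median of 2.54 and at most 9.67 percentage points. A single library could differ by more, as the Rimbp2 exon of 21 bases did in replicate 1, at 29.4% and 18.3%.

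**Figure D2:**
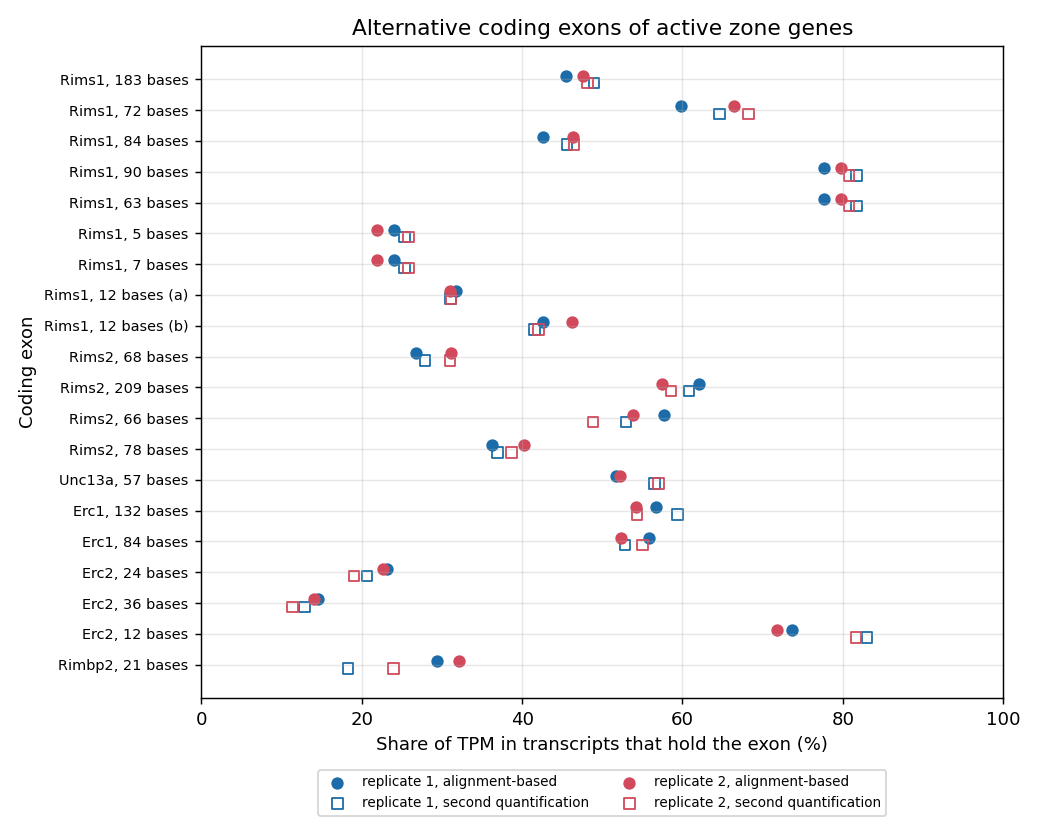
Share of TPM in transcripts that hold each of the 20 alternative coding exons, in percent, for both libraries (colours) and both quantifications (filled circles and open squares). Exons are named by gene and length, in order of position on the chromosome. The Erc2 exon of 36 bases lies lowest, at 11.4% to 14.5%, and the Rims1 exons of 90 and 63 bases lie at 77.7% to 81.7%.

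Rims1 held the most alternative exons, 9 of the 20. The exons of 183, 72 and 84 bases are printed in capitals with 12 bases of the neighbouring exons on each side, 5′ to 3′ along the transcript, as the Rims1 models differ in which of them they hold. They lie on the minus strand of mm10.
Rims1 exon of 183 bases, chr1:22398599-22398781: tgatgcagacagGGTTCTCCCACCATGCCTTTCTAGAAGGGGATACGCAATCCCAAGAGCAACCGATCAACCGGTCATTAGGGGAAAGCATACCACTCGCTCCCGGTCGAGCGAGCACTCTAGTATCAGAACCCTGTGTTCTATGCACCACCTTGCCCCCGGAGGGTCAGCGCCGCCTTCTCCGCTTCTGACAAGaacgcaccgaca
Rims1 exon of 72 bases, chr1:22404444-22404515: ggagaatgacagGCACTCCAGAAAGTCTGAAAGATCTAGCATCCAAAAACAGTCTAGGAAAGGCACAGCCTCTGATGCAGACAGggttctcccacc
Rims1 exon of 84 bases, chr1:22412211-22412294: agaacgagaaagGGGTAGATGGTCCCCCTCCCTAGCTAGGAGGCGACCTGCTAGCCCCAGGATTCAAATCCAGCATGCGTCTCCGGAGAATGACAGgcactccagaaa
The exon of 183 bases was held by 45.5% of the TPM in replicate 1 and 47.6% in replicate 2, that of 72 bases by 59.8% and 66.4%, and that of 84 bases by 42.6% and 46.4%. The exons of 90 and 63 bases next to them are held by the same transcripts as each other, at 77.7% and 79.7%. Most of these shares came from the incomplete model Rims1-208, which holds all 5. In the second quantification the exon of 183 bases was at 49.0% and 48.2%, that of 72 bases at 64.6% and 68.2% and that of 84 bases at 45.6% and 46.5%.

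Near the start of Rims1, different models carry different short exons between the same flanks, and they are shown for that reason, again in capitals.
Rims1 exon of 12 bases in Rims1-202, chr1:22594093-22594104: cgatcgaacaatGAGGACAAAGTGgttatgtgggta
Rims1 exon of 12 bases in Rims1-201, Rims1-203 and Rims1-206, chr1:22593033-22593044: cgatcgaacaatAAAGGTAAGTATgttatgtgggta
Rims1 exon of 7 bases in Rims1-209, chr1:22574742-22574748: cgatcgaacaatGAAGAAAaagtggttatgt
The Rims1-209 exon of 7 bases is followed by 1 of 5 bases, so that this model also has 12 bases between the flanks. The exon of Rims1-202 had a share of 42.6% and 46.3%, the exon shared by the 3 complete models a share of 31.7% and 31.1%, and the exons of Rims1-209 a share of 24.0% and 21.9%. The second quantification gave 41.5% and 42.0%, 31.1% in both libraries, and 25.4% and 25.8%.

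Rims2 had 4 alternative exons, and those of 66 and 78 bases are shown because Rims2-201 holds the first and Rims2-206 the other (plus strand, exon in capitals).
Rims2 exon of 66 bases, chr15:39517806-39517871: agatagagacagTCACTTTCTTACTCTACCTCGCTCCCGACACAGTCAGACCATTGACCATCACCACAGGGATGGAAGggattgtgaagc
Rims2 exon of 78 bases, chr15:39610064-39610141: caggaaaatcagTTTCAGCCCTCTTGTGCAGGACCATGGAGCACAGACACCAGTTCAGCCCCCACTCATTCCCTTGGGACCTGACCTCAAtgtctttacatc
The exon of 66 bases, held by Rims2-201, had a share of 57.7% and 53.8%. The exon of 78 bases had 36.3% and 40.3%, all of it from Rims2-206. Near where the long models carry an exon of 209 bases, at 62.1% and 57.5%, Rims2-206 carries 1 of 68 bases, at 26.8% and 31.1%.

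Unc13a (ENSMUSG00000034799.16) encodes Munc13-1, the main vesicle priming protein of forebrain excitatory neurons. It lies on chromosome 8 from 71624417 to 71671757 on the minus strand and was at 107 TPM in replicate 1 and 101 in replicate 2, a mean of 104.0 ± 4.83 TPM (SD, n = 2). Unc13b, which encodes Munc13-2, was at 17.0 and 14.1 TPM, so that Unc13a was 6.33 and 7.14 times as high, and 11.4 and 12.2 times per length of the longest coding transcript. Unc13c, the gene of Munc13-3, was at 2.77 and 3.05 TPM, and Unc13d, the gene of Munc13-4, at 0.510 and 0.400 TPM. The Munc13 genes thus ran from Unc13a down to Unc13d with no overlap between neighbours in gene TPM, and the second quantification kept that order.

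Most of the Unc13a level was divided between 2 complete models. Unc13a-208, with 45 exons, held 35.1% and 35.2% of the TPM, and Unc13a-201, with 44 exons and a longer end, held 32.7% and 32.2%. They differ in a coding exon of 57 bases that Unc13a-208 holds and Unc13a-201 skips, which is shown for that reason (minus strand, exon in capitals).
Unc13a exon of 57 bases, chr8:71633439-71633495: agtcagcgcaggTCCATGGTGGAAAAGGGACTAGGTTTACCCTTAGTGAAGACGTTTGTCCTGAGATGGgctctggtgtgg
Its share was 51.7% in replicate 1 and 52.2% in replicate 2, and 56.5% and 57.0% in the second quantification. Since both models also differ in where they end, reads outside the exon enter these shares. The retained-intron models of Unc13a held 24.3% and 23.4% of the TPM, where the mean over the 11502 genes was 11.1% and 10.6% and the median 4.22% and 3.68%. Of these, Unc13a-206 held 12.6% and 12.8%, and 5.02% and 6.11% in the second quantification. Colgalt1 overlaps Unc13a on the other strand with 1390 and 1310 counts, and although the spike-in label names stranded libraries, whether the counting used strand is not given in the sources used here.

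Of the 4 pairs of paralogs among the 10 genes, the ELKS/CAST genes differed most. Erc2 (ENSMUSG00000040640.11) encodes CAST, a protein of the neuronal active zone, and lies on chromosome 14 from 27622428 to 28478537 on the plus strand. It was at 99.5 TPM in replicate 1 and 94.85 in replicate 2, a mean of 97.2 ± 3.29 TPM (SD, n = 2). Erc1 (ENSMUSG00000030172.15) encodes ELKS, which is made in many tissues, and lies on chromosome 6 from 119570796 to 119848167 on the minus strand. It was at 21.1 and 19.3 TPM, a mean of 20.2 ± 1.30 TPM (SD, n = 2). Erc2 was 4.71 and 4.91 times Erc1, and 5.37 and 4.87 times in the second quantification.

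In Erc2 the leading transcript depended on the quantification. Erc2-208, which starts inside the gene at 27876104 at a CAGE-supported start and has 1869 coding bases, held 24.4% and 26.5% of the TPM. Erc2-201, with 3006 coding bases, held 19.7% and 20.97%, and Erc2-210 held 19.8% and 16.5%. In the second quantification Erc2-210 led with 27.8% and 29.9%, ahead of Erc2-208 at 21.8% and 27.5%. Erc2-212, a noncoding model of 486 bases, had 22.8 TPM in replicate 1 and 1.24 TPM in replicate 2 there, and 0 in the first quantification in both libraries. These values enter the Erc2 total of the second quantification, 186 and 156 TPM, and so its ratio to Erc1. The retained-intron model Erc2-207 held 11.8% and 14.2%, but 2.57% and 0.495% in the second quantification. Erc2-206, typed as a target of non-stop decay, held 2.97% and 2.38%, but 9.41% and 10.9% there.

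Short exons set the Erc2 models apart, and those of 24 and 12 bases are shown with the exon in capitals (plus strand). Erc2-205 holds both, while Erc2-208 and Erc2-210 hold the exon of 12 bases and Erc2-201 neither.
Erc2 exon of 24 bases, chr14:27776159-27776182: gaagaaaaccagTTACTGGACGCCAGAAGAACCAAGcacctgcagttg
Erc2 exon of 12 bases, chr14:28046475-28046486: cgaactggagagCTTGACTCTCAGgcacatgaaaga
The exon of 24 bases had a share of 23.1% and 22.6%, and that of 12 bases 73.7% and 71.8%. The second quantification gave 20.6% and 19.1% for the first and 83.0% and 81.6% for the other. A further Erc2 exon of 36 bases, held by Erc2-205, had the lowest share of the 20 at 14.5% and 14.0%.

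Erc1 was led by a transcript that the annotation types as a target of nonsense-mediated decay, the pathway that removes messages with an early stop. Erc1-206 held 40.7% and 43.7% of the Erc1 TPM, and 32.9% and 34.2% in the second quantification. Its level was 8.61 and 8.43 TPM. The protein-coding models Erc1-203 and Erc1-201 held 29.0% and 31.9%, and 23.8% and 17.7%, with 3360 coding bases each. Their order turned in the second quantification, with Erc1-201 at 28.9% and 30.6% and Erc1-203 at 16.6% and 13.3%. Erc1 was the only 1 of 9 of these genes whose leading transcript was not typed protein-coding, of any kind, where 8.19% of the 11502 detected protein-coding genes had one. The share with a decay-typed leading transcript was not computed. Models typed for this decay held 41.3% and 45.6% of the Erc1 TPM in all, against a mean of 3.49% and 3.48% and a median of 0 over those genes.

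Erc1-206 lacks 2 coding exons that Erc1-201 and Erc1-203 hold, of 132 and 84 bases, both multiples of 3, shown in capitals (minus strand).
Erc1 exon of 132 bases, chr6:119713680-119713811: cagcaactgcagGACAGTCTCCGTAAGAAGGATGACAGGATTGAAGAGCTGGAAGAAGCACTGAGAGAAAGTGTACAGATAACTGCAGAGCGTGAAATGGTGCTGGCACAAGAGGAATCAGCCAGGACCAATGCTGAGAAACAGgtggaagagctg
Erc1 exon of 84 bases, chr6:119777988-119778071: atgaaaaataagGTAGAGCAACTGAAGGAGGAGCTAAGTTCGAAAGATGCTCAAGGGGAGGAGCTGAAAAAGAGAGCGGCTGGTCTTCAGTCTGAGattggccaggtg
The exon of 132 bases had a share of 56.8% and 54.2%, and that of 84 bases 55.8% and 52.3%. In the second quantification the shares were 59.4% and 54.3%, and 52.9% and 55.0%.

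Rimbp2 (ENSMUSG00000029420.12) encodes a RIM-binding protein, which links RIMs to calcium channels through its SH3 domains. It lies on chromosome 5 from 128757791 to 128953486 on the minus strand and was at 51.4 TPM in replicate 1 and 54.8 in replicate 2, a mean of 53.1 ± 2.37 TPM (SD, n = 2). Its paralog Tspoap1, the gene of RIM-binding protein 1, was at 63.0 and 58.1 TPM, which is 1.22 and 1.06 times Rimbp2. In the second quantification that order turned, with ratios of 0.977 and 0.870, so the order of the pair depends on the quantification. Rimbp2-207 led with 32.3% and 31.5% of the TPM, followed by Rimbp2-204 at 28.7% and 30.1% and Rimbp2-205 at 23.6% and 17.4%. Rimbp2-207 also led in the second quantification, with 37.2% and 40.8%, but Rimbp2-205 at 27.0% and 19.7% and Rimbp2-204 at 18.3% and 22.9% had no order that held in both libraries. Rimbp2-206, a model of 620 bases that is incomplete at its end, held 12.9% and 14.5%, and 17.6% and 15.5% in the second quantification. Rimbp2-205 had the widest gap between libraries of the 72 transcripts in the first quantification, at 6.13 percentage points.

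Rimbp2-204 and Rimbp2-205 start downstream of Rimbp2-207, and an exon of 21 bases is held by Rimbp2-204 but skipped by Rimbp2-205 and Rimbp2-207 (minus strand, exon in capitals).
Rimbp2 exon of 21 bases, chr5:128811983-128812003: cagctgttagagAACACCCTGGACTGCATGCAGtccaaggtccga
Its share was 29.4% and 32.1%, and 18.3% and 24.0% in the second quantification.

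**Figure D3:**
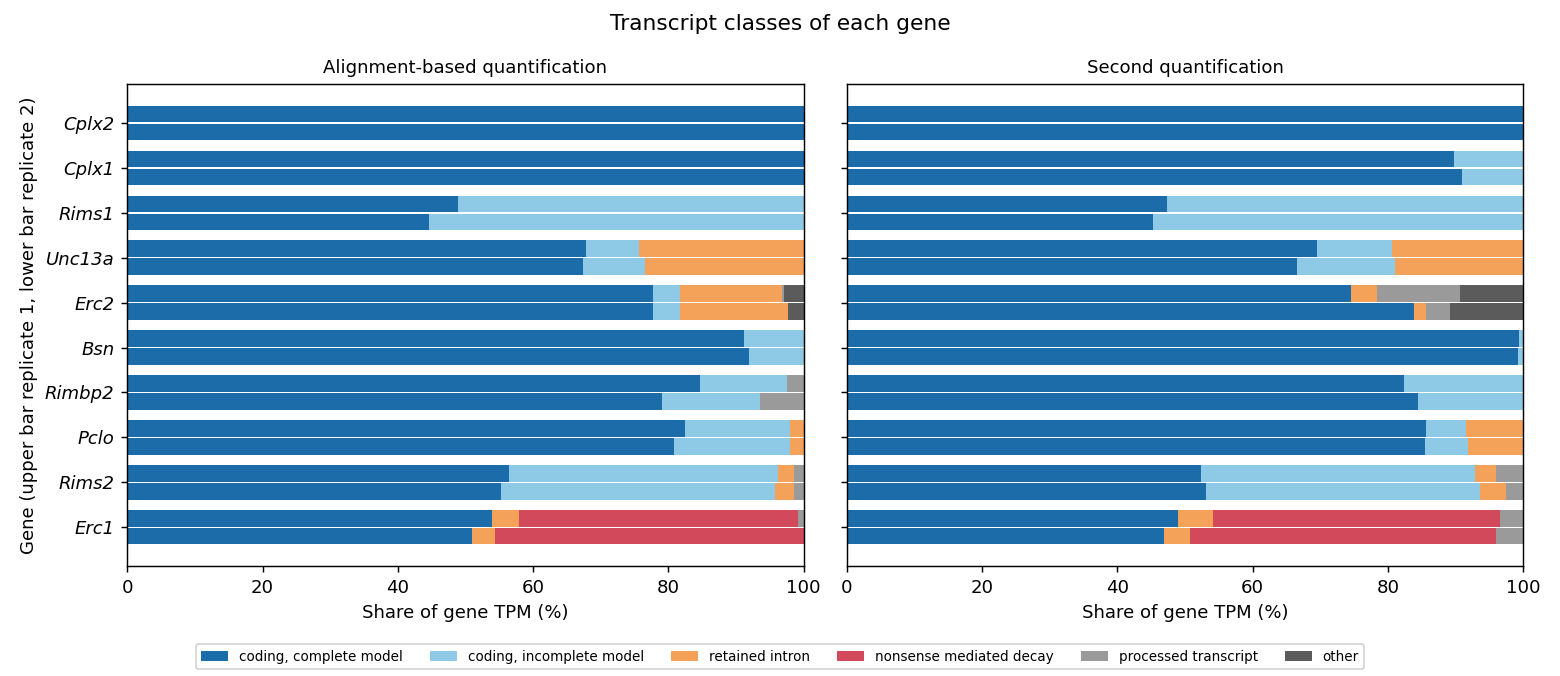
Share of each gene's TPM, in percent, in complete and incomplete coding models and in models typed retained intron, nonsense-mediated decay, processed transcript or other, with replicate 1 above replicate 2, for both quantifications. Erc1 stands out by its decay-typed share of 41.3% and 45.6% and Rims1 by incomplete models at 51.0% and 55.3%.

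The leading transcript was the same in both libraries for 9 of 9 genes with several transcripts, where it was for 88.6% of 11997 detected genes. It was the same in both quantifications for 8 of 9, all but Erc2, where it was for 75.2%. Incomplete coding models held 51.0% and 55.3% of Rims1 and 39.8% and 40.5% of Rims2, against a mean of 6.29% and 6.39% over detected protein-coding genes with several transcripts. In Bsn they held 8.75% and 8.04%.

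By mean level the order was Cplx2, Cplx1, Rims1, Unc13a, Erc2, Bsn, Rimbp2, Pclo, Rims2 and Erc1. Of the 9 neighbouring pairs, 8 had libraries that did not overlap, and only Erc2 and Bsn overlapped. The second quantification gave the same order, with 1 overlap, between Unc13a and Erc2. Levels there were 1.43 to 1.76 times as high, and nuclear protein-coding genes held 74.2% and 74.4% of its TPM against 42.1% and 41.2%. With both scaled to those genes, the second was 0.802 to 0.985 of the first.

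Per length of the longest coding transcript the order changed below the complexins, to Bsn, Erc2, Unc13a, Rims1, Pclo, Rimbp2, Rims2 and Erc1. Bsn was then at 85.0 ± 9.20 TPM, Erc2 at 60.9 ± 1.85 TPM, Unc13a at 57.0 ± 2.98 TPM and Rims1 at 51.9 ± 1.27 TPM (SD, n = 2). Only Pclo and Rimbp2 then overlapped. The gene TPM of Rims1 was 2.12 times this value, that of Unc13a 1.83 times and that of Erc2 1.60 times, against a median of 1.21 over detected protein-coding genes. The places of Rims1, Unc13a, Erc2 and Bsn therefore depend on which length is used.

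The libraries differed little in these genes. No gene of the 10 was 2-fold apart, where 0.273% of 13916 genes with at least 50 counts in both libraries were. The log2 ratio of replicate 2 over replicate 1 was lowest for Bsn at -0.23, followed by Pclo at -0.14, Erc1 at -0.13 and Unc13a at -0.095, and Rimbp2 was highest at 0.091. The median was -0.072, against -0.044 with an SD of 0.20 over the 13916 genes. The ratio was below 0 for 9 of 10 genes, where it was for 62.6% of the 13916, for 7 of 10 in TMM-scaled counts, where it was for 48.8%, and for 10 of 10 in the second quantification, where it was for 55.4%. Markers of other cell types also differed between the libraries. The summed level of the 4 choroid plexus markers was 11.15 TPM in replicate 1 and 24.1 TPM in replicate 2, of the 4 oligodendrocyte markers 881 and 784 TPM, and of the 4 astrocyte markers 1261 and 1171 TPM. The 5 glutamatergic markers summed to 2259 and 2140 TPM and the 5 GABAergic markers to 388 and 400.3 TPM. Markers of a list did not all move together. Camk2a was at 1503 and 1371 TPM, and Neurod6 and Prox1 were also lower in replicate 2, while Slc17a7 and Wfs1 were higher. In the second quantification Camk2a was higher in replicate 2, at 2427 and 2519 TPM. Gad2, Pvalb and Mog moved against the sum of their lists. Ttr alone was at 10.6 and 23.1 TPM, most of the choroid plexus sum. The part of these shifts in the values of the 10 genes was not tested.

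**Figure D4:**
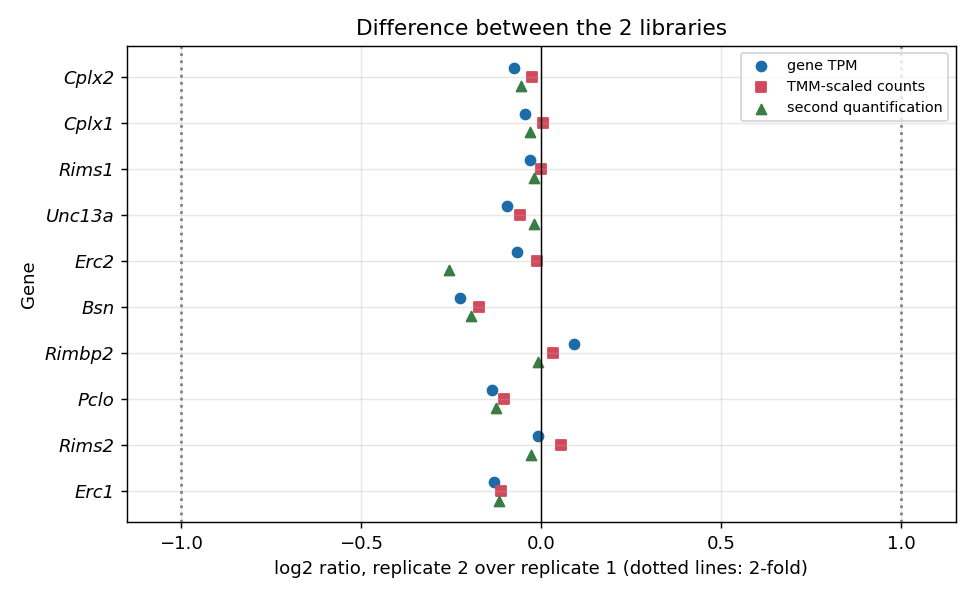
Log2 ratio of replicate 2 over replicate 1 for each gene in gene TPM (circles), in counts scaled by TMM (squares) and in the second quantification (triangles), with dotted lines at 2-fold. All values lie well within the dotted lines, with Bsn lowest in gene TPM at -0.23 and Erc2 lowest in the second quantification at -0.26.

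The authors' deposited interval of TPM within each library gives the precision of a single library. For Bsn it ran from 91.8 to 94.5 TPM in replicate 1 and from 78.4 to 80.8 TPM in replicate 2. These intervals lay apart, with replicate 2 lower, for Bsn, Pclo, Erc1 and Cplx2, 4 of 10 genes, where they did for 4.83% of 13916 genes. Among the 2149 genes with at least 2857 counts in both libraries, the lowest count of the 10 genes, the share was 16.4%. They lay apart with replicate 2 higher for 0 of 10, where 1.09% of the 13916 did. The deposited TPM itself lay above its interval in Bsn, Pclo, Cplx1 and Cplx2, so the interval is not centred on it.

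Of a list of 9 relatives of these genes 7 were detected, with a median of 2.91 TPM over the 9. Beside Tspoap1 and the Unc13 genes, Rims4 was at 15.3 ± 1.39 TPM and Rims3 at 11.9 ± 0.417 TPM (SD, n = 2), both genes of short RIMs with a single C2 domain. Cplx3, a complexin known from the retina, was at 2.13 ± 0.368 TPM and Rimbp3 at 1.61 ± 0.191 TPM (SD, n = 2). Cplx4, the other retinal complexin, had 1 count in replicate 1 and 0 in replicate 2.

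A list of 30 partners, among them liprins, receptor phosphatases, the Rab3 cycle and the Cask complex, was detected in full, with a median of 47.8 TPM. The highest were Rab3a, the vesicle GTPase that RIMs bind, at 319 ± 8.56 TPM and Ptprs, a receptor phosphatase that binds liprins, at 263 ± 11.02 TPM (SD, n = 2). Their order turned in the second quantification, with Ptprs at 636 and 580.2 TPM and Rab3a at 532 and 513 TPM. The lowest were Baiap3, a relative of Munc13, at 3.76 ± 0.721 TPM, Rab3d at 7.68 ± 1.26 TPM and Lin7a, of the Cask complex, at 11.5 ± 0.269 TPM (SD, n = 2). In both quantifications Rab3a lay between Cplx2 and Cplx1.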

How the data were processed

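Total RNA of 2 hippocampus libraries was analysed as 1 group. Per the submitters' file notes, the gene table and the first transcript table derive from alignments to the transcriptome, and the other transcript table directly from reads, on mm10 with GENCODE M21. The sources used here do not name programs or versions, and the column layouts are those of RSEM and kallisto. The authors deposited an expected count, an estimated number of reads, and a TPM scaled over every entry of a table. The bounds of their within-library interval are a deposited signal in TPM. No step named handles the CAST/EiJ allele, which can lower counts where it differs from the reference.

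Entries that name no gene (26345, with 0.491% and 0.511% of counts) were left out. The second quantification was summed to genes. TMM factors came from edgeR 4.0.16 (R 4.3.3) on counts rounded to whole numbers. The level per longest coding transcript is the TPM times the ratio of the gene's effective length to that length. Sequences, exons and models tagged incomplete came from GENCODE M21. All 10 genes were named, with transcripts of at least 10% of a gene's TPM, the 9 relatives, and the 3 highest and 3 lowest partners, of which 1 is not reported here. No gene was named for a like pattern, which 1 group cannot give. The genes and lists were chosen with earlier results of these data known. The 2-fold call was tested on simulated counts with counting noise alone. The planted changes were larger than 2-fold and lay in genes well above the count minimum, so calls near those limits were not tested. The exon step was checked only on a few made-up transcripts with fixed TPM, so recovery of exon shares from reads was not tested. Alternatives were other thresholds, scalings, quantifications and leaving out a library. Nothing names separate animals beyond replicate numbers, so the spread may be technical.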

Additional observations from a re-analysis of the deposited data

How the results depend on the processing

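The median of the mean levels of the 10 genes was 93.1 TPM, 149 TPM in the second quantification, 223 TPM when scaled to nuclear protein-coding genes, 54.4 TPM per longest coding transcript, which was chosen after seeing the data, and 88.4 to 97.7 TPM when leaving out a library. The median share of the leading transcript was 38.6%, 52.0% when only transcripts typed protein-coding were counted, 38.8% in the second quantification and 37.9% to 39.4% when leaving out a library. This median is over all 10 genes and so includes Cplx2, which has 1 annotated transcript and is at 100%. All 10 genes were detected at 0.5, 1 and 5 TPM. The share over all genes is given only at 1 TPM, at 26.2%, so the counts at 0.5 and 5 TPM have no such share beside them. None was apart at a fold of 2, where 38 of 13916 genes were, or at 1.5, where 246 of 13916 were. None was 2-fold apart at a count minimum of 10, where 265 of 17674 genes were, or with no filter, where 2540 of 23625 were. With TMM scaling the median log2 ratio was -0.020. The leading transcript was shared by the quantifications for 6 of 9 genes when counts replaced TPM, and for 7 of 9 among coding models. The share over all genes, 75.2% of 11997 in TPM, was not computed at these settings. Scaling to nuclear protein-coding genes set all 9 neighbouring pairs apart. No paired analysis was possible because the libraries form 1 group. With 2 libraries an SD has a single degree of freedom, and transcript shares rest on the annotated models.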

Other observations

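Some relatives of the active zone genes had values that differ by measure. Cplx3 had 48 counts and 2.39 TPM in replicate 1 but 64 counts and 1.87 TPM in replicate 2, so that counts and TPM pointed opposite ways. Unc13d was at 0.510 and 0.400 TPM in the gene quantification and at 3.63 and 3.46 TPM in the second. Of the 72 annotated transcripts of the 10 genes, 16 had 0 TPM in both libraries of the first quantification, and 8 of them were at 0 in the second too. No such share over the transcripts of all genes is given, so whether these counts are usual cannot be read. The largest gap between the quantifications in a transcript's mean share was 15.5 percentage points, for Erc1-203. The largest gap between libraries in the second quantification was 11.5 percentage points, for Erc2-212.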
